A study of Homo sapiens with 24 samples.

Results

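The comparison is between 3D dSRF and 3D control, 6 of the 24 libraries of the series. Both groups are MDA-MB-231, a human breast cancer cell line of mesenchymal character, grown over a layer of matrigel, a gel of basement membrane proteins, in medium with 2% matrigel. The 3D dSRF line carries a doxycycline-inducible overexpression construct for a mutant of myocardin related transcription factor A that the titles call dSRF MRTF-A OX, an abbreviation that the labels do not spell out. The titles of the 3D control line read Control and name no construct. Libraries of both groups are labelled with 1 ug/ml doxycycline for 72 h. Any effect of the drug itself was not tested. Each group has 3 libraries, chosen by title. The protocol names a total RNA kit with ribosomal RNA depletion, while the molecule field of the labels reads polyA RNA. The other libraries used are 3D WT, which overexpresses wild-type MRTF-A on matrigel, and 2D dSRF and 2D control, the same lines in culture plates, with 3 libraries each. They carry the same doxycycline dose and time in their labels. The labels do not say whether a line is a clone or a pool, or whether replicates were separate cultures. The p-values measure the spread between libraries within a group, estimated together over all 24 libraries of the series. That spread may be technical. The comparison asks which transcripts change when this MRTF-A mutant is overexpressed in cells on matrigel.

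MRTF-A, the product of MRTFA, is a coactivator that is held in the cytoplasm by monomeric actin. When actin polymerises it enters the nucleus and binds serum response factor, SRF, which sits on a DNA element called the CArG box and drives actin, myosin and adhesion genes. MRTF-A also has a SAP domain, through which SRF-independent effects on other genes have been described, including in breast cancer cells.

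Levels below are CPM, counts scaled to library size with TMM factors, and 3 values are always libraries 1, 2 and 3. Fold changes are log2, 3D dSRF over 3D control, with the standard error (SE) of the fit and the Benjamini-Hochberg adjusted p of edgeR's quasi-likelihood test, with n = 3 libraries per group. A gene was called, and is said to have risen or fallen, at an adjusted p under 0.05.

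The induced gene was measured first. MRTFA (ENSG00000196588, chr22:40410281-40636702, GRCh38) stood at 664, 4840 and 4860 CPM in 3D dSRF and 29.5, 28.8 and 29.2 CPM in 3D control (log2 fold change 6.89, SE 0.51, adjusted p = 6.77e-10, and 7.37 without library 1). All 3D dSRF libraries lay above every control library, but library 1 held far less MRTFA than libraries 2 and 3. The 3D WT libraries had 4490, 4440 and 4610 CPM. Reads of the endogenous gene and of the construct cannot be told apart in these counts. The genotype field of the labels disagrees with the title for 4 of these 6 libraries, and the MRTFA levels follow the titles in separating 3D dSRF from 3D control. These levels cannot show which form of MRTF-A a library carries, since 3D WT was high as well.

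Library 3D dSRF 1 stood apart from its group. Of 14986 genes tested, 2027 differed more than 2-fold in it from the mean of the other 3D dSRF libraries, against 461 for library 2 and 372 for library 3. Across genes, its log2 levels had r = 0.952 with libraries 2 and 3 averaged and r = 0.971 with the 2D dSRF average. For library 2 these values were 0.976 and 0.972. Among 1185 genes at least 4-fold apart between libraries 2 and 3 and control, library 1 lay between them for 1026, beyond libraries 2 and 3 for 118 and at or beyond control for 41. Its median position was 0.571 of the way from control to libraries 2 and 3 on the log2 scale. IL24, a cytokine gene chosen here after its values were seen, shows a gene that was high in that library alone, at 187, 0.854 and 2.27 CPM in 3D dSRF and 0.696, 0.585 and 0.451 CPM in 3D control. What sets this library apart was not tested, and values without it are given beside those with all libraries.

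**Figure D1:**
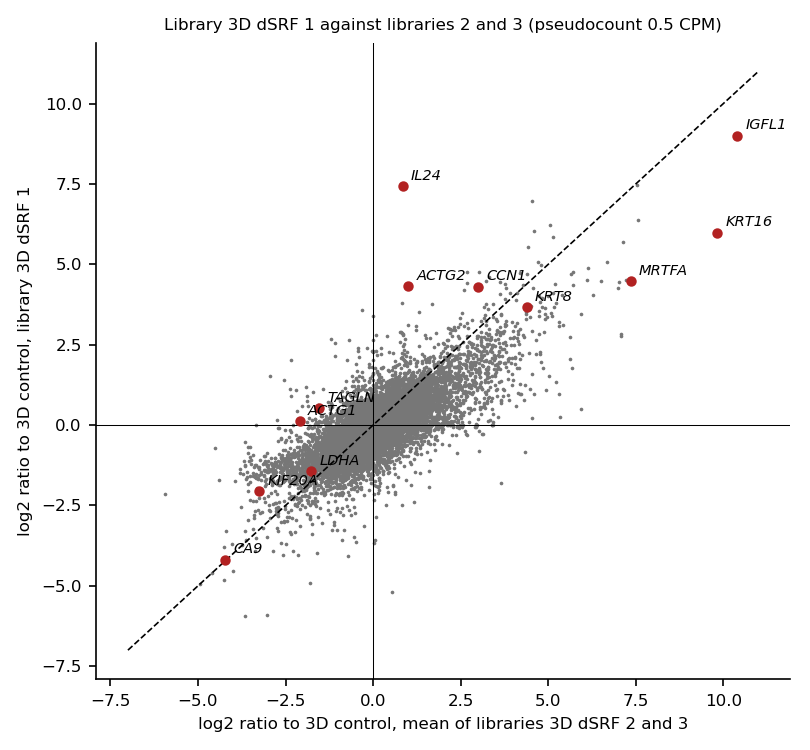
Each grey point is a gene, with its log2 ratio to the mean of 3D control in the mean of libraries 3D dSRF 2 and 3 on the x axis and in library 3D dSRF 1 on the y axis, after adding 0.5 CPM. The dashed line marks equal ratios. Most genes far from 0 on the x axis lie between the dashed line and the horizontal line, as KRT16 and MRTFA do, while IL24 and ACTG2 lie far above it.

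The dSRF line differed from control across much of the transcriptome. With all libraries, 9948 of 14986 genes were called (66.4%), 5261 higher (35.1%) and 4687 lower (31.3%). Differences of at least 2-fold were called for 2142 genes higher (14.3%) and 1493 lower (9.96%). Without library 1, 11098 of 15246 genes were called (72.8%), 5671 higher (37.2%) and 5427 lower (35.6%). 9433 genes were called in the same direction in both fits (62.9%), 512 with library 1 only (3.42%), 1551 without it only (10.3%) and 3 in opposite directions (0.02%). These 3 were IL6, TGFB2 and DKK1, higher with all libraries and lower without library 1. With only the 6 libraries compared in the fit, 6761 genes were called, 3556 higher and 3205 lower. The groups did not overlap for 8959 genes (59.8%), 4640 higher (31%) and 4319 lower (28.8%). Genes named below were mostly picked for a low p or a large change, so non-overlap in them adds no support. The median over all genes tested was 0.02 log2 units, so counts of list members below are read against 35.1% higher and 31.3% lower. Listed genes with too few counts were not tested, among them 4 of 22 contractile, 6 of 35 epithelial, 5 of 18 mesenchymal and 9 of 16 luminal genes. Members named beside a count of 5 or fewer were named after their values were seen. The total counts were 23023415, 17618179 and 19229766 in 3D dSRF and 16088936, 16153751 and 18380548 in 3D control. The defining markers of the line were present: none of 14 genes known to be high in MDA-MB-231 was under 1 TPM in any of the 6 libraries. In bulk RNA, fewer cells that express a gene and less RNA of it per cell cannot be told apart.

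**Figure D2:**
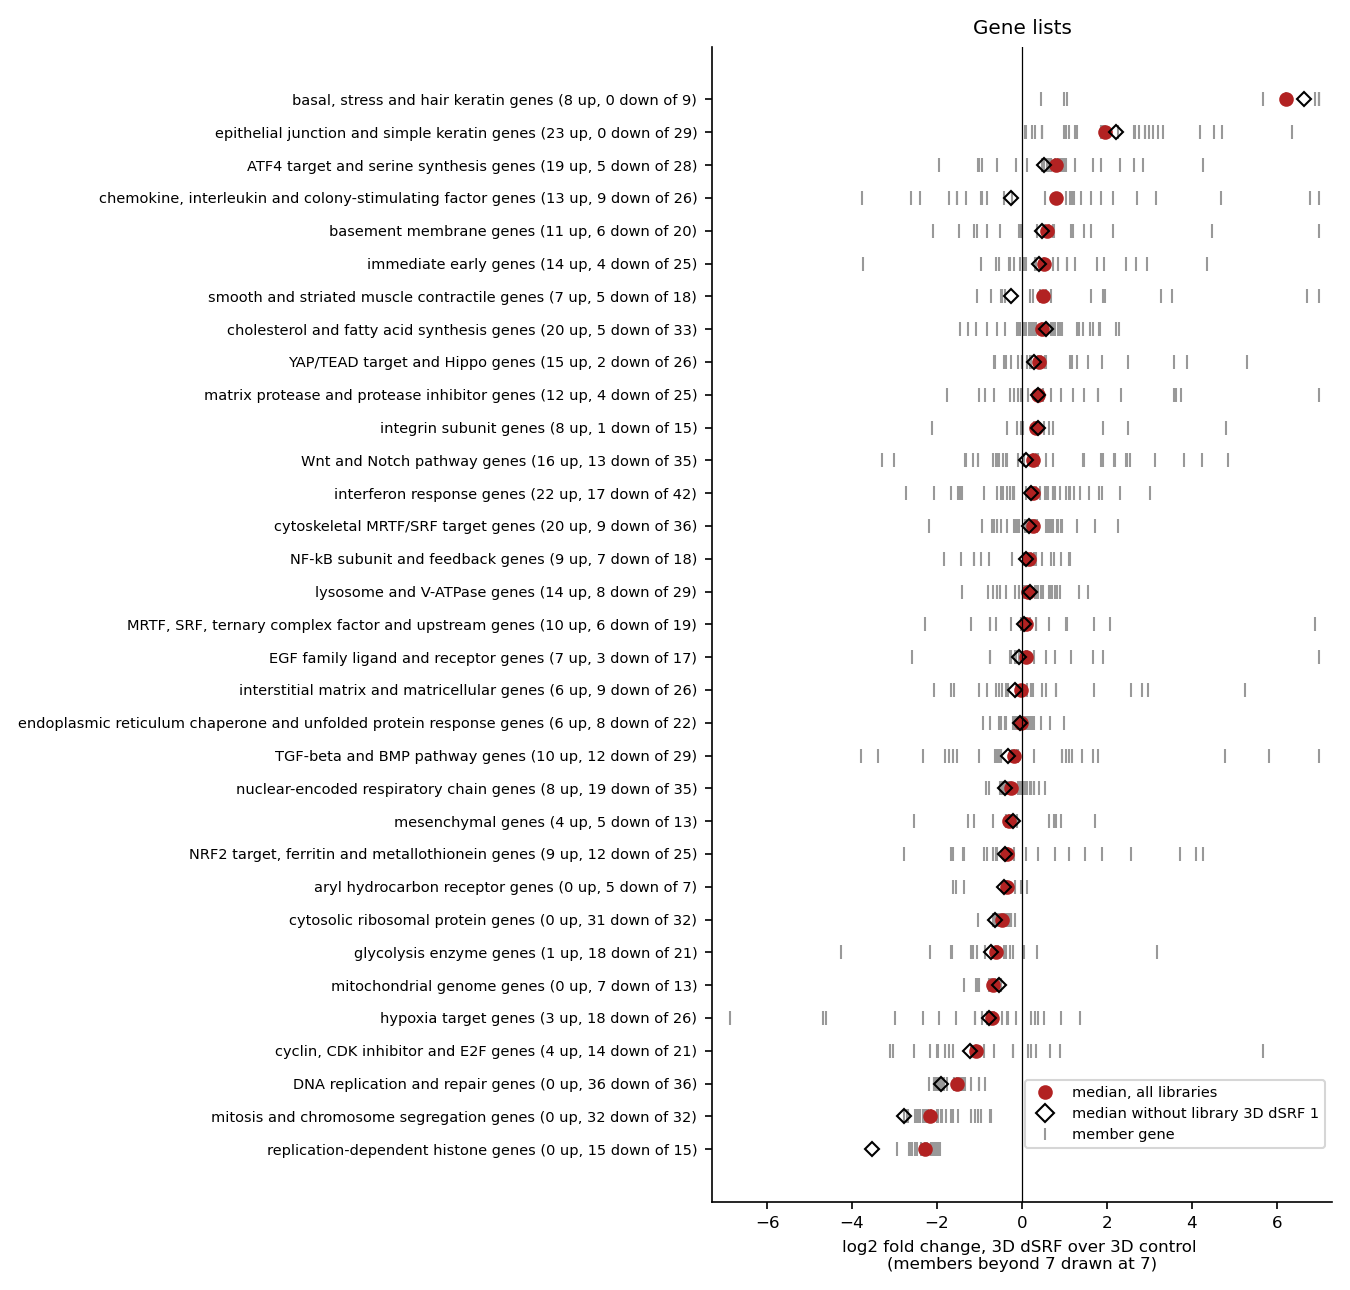
Each row is a gene list, with the log2 fold change of 3D dSRF over 3D control on the x axis. Grey ticks are tested members, filled circles the list medians with all libraries and open diamonds the medians without library 3D dSRF 1, and the counts beside each name are members that rose and fell. Keratin and junction lists sit to the right of 0, and the mitosis, replication and histone lists to the left with and without library 1.

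The 15 largest rises that met the naming rule were genes with almost no reads in control. Of these 15 genes, 13 had no count in any 3D control library, so their folds are given as minimum values, taking 3 counts summed over the control libraries as the floor. IGFL1 (ENSG00000188293, chr19:46229752-46231243), a secreted insulin-growth-factor-like protein, had 256, 648 and 707 CPM in 3D dSRF and 0 in 3D control, at least 9720-fold higher. CYP4B1, a cytochrome P450 enzyme, had 25.4, 65.6 and 73.9 CPM in 3D dSRF and 0 in control, at least 994-fold higher. CRCT1, of the epidermal differentiation complex, had 10.9, 79 and 69.2 CPM in 3D dSRF and 0 in control (at least 959-fold). LCE3D, a late cornified envelope protein, had 2.88, 65 and 69.1 CPM in 3D dSRF and 0 in control (at least 826-fold). KRT16, a stress keratin of the epidermis, had 33.7, 472 and 504 CPM in 3D dSRF and 0.058, 0.0585 and 0 CPM in 3D control, where control held 2 counts in all. In each of these 5 genes library 1 was below libraries 2 and 3.

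The other 10 were MAPK4, an atypical MAP kinase (at least 302-fold), KLHDC7A (3.18, 69.6 and 69 CPM in 3D dSRF and 0, 0.0585 and 0 CPM in 3D control), the metallothionein MT1B (at least 187-fold), the meiotic histone methyltransferase PRDM9 (at least 174-fold) and the lymphocyte receptor SLAMF1 (at least 171-fold). DAAM2, a formin of Wnt signalling, was at least 168-fold higher, the prostaglandin transporter SLCO2A1 at least 147-fold, RIMBP2 at least 133-fold, the phosphate transporter SLC34A2 at least 122-fold and PAEP, glycodelin, at least 110-fold. SLCO2A1 had 8.12, 7.42 and 8.83 CPM in 3D dSRF, with library 1 level with the others, whereas in the other 14 genes library 1 was the lowest. In plates all 15 genes were also higher in the dSRF line, for example IGFL1 at 863, 927 and 820 CPM in 2D dSRF and 0 in 2D control. MT1B, LCE3D, KRT16 and PRDM9 have near-identical relatives, so reads can be split among copies. The calls of SLAMF1 and RIMBP2 were lost in DESeq2 (adjusted p = 0.0854 and 0.106).

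The 15 largest falls included genes of the hypoxia response. CA9 (ENSG00000107159, chr9:35673856-35681159), a membrane carbonic anhydrase and hypoxia marker, had 0.0859, 0.16 and 0 CPM in 3D dSRF and 11.4, 10.8 and 8.48 CPM in 3D control (log2 fold change -6.87, SE 0.44, adjusted p = 5.71e-11, and -6.93 without library 1). CA12, its relative, had 0.902, 0.0534 and 0.493 CPM in 3D dSRF and 14.3, 14.1 and 11.1 CPM in 3D control (log2 fold change -4.69, SE 0.39, adjusted p = 2.44e-09, and -5.52 without library 1). EGLN3, an oxygen-sensing prolyl hydroxylase, had 0.859, 0.694 and 0.493 CPM in 3D dSRF and 19.3, 17.1 and 15 CPM in 3D control (log2 fold change -4.62, SE 0.18, adjusted p = 3.2e-14, and -4.84 without library 1). The naming rule required groups that do not overlap, so their separation is no added result. Library 1 was far below control in these genes as well. PPFIA4, a liprin, had 0.645, 1.01 and 1.38 CPM in 3D dSRF and 30.4, 27.2 and 38.3 CPM in 3D control (log2 fold change -4.99, SE 0.20, adjusted p = 4.57e-14, and -4.73 without library 1). The aldolase gene ALDOC had 0.43, 1.01 and 0.69 CPM in 3D dSRF and 14.8, 13.7 and 11.7 CPM in 3D control (log2 fold change -4.25, SE 0.25, adjusted p = 1.97e-11, and -3.97 without library 1). IGF2, insulin-like growth factor 2, fell by 4.23 on the log2 scale, and by 4.72 without library 1.

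The remaining falls were NEURL1B, a ubiquitin ligase of Notch ligands (-4.62 and -4.39 without library 1), RTN4RL2, a Nogo receptor relative (-4.73 and -5.05 without library 1), ADIRF (-4.46 and -4.52 without library 1), C1QL1 (-4.97 and -5.54 without library 1), the interleukin-23 receptor IL23R (-4.26 and -3.61 without library 1) and the transcription factor CREB3L3 (-4.22 and -3.62 without library 1). KLRC3 and KLRC4-KLRK1, of the lectin-like receptor cluster of natural killer cells, had at most 0.16 CPM in any 3D dSRF library and 1.71 to 3.36 CPM in 3D control libraries, and reads can be split among the copies of this cluster. GPR199P, a pseudogene, had no count in 3D dSRF and 0.928, 0.76 and 1.66 CPM in 3D control, at least 23.1-fold lower. All 15 genes were at 1.58 CPM or less in every 3D dSRF library.

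**Figure D3:**
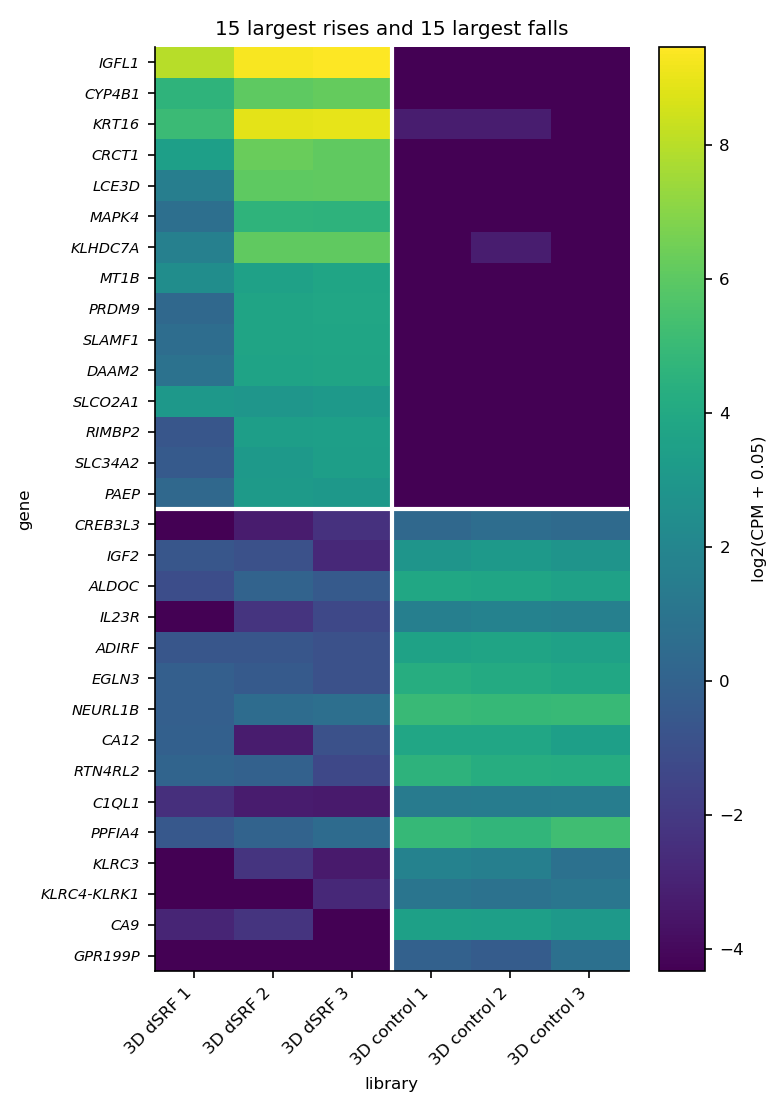
Colour gives log2(CPM + 0.05) of the 15 largest rises, above the white line, and the 15 largest falls, below it, in the 3D dSRF libraries on the left and the 3D control libraries on the right. Library 3D dSRF 1 is dimmer than libraries 2 and 3 for most of the rises, and the 3 dSRF libraries are alike for most of the falls.

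Genes that feed MRTF and SRF moved in both directions. In a list of MRTF, SRF and ternary complex factor genes and their upstream regulators, 10 of 19 tested members rose and 6 fell, with a median of 0.10 log2 units. Without library 1, 9 rose and 9 fell (median 0.06). MRTFB, the paralogue of MRTFA, fell, with 22.5, 22 and 20.8 CPM in 3D dSRF and 49.5, 49.8 and 51 CPM in 3D control (log2 fold change -1.20, SE 0.05, adjusted p = 1.03e-13, and -1.23 without library 1). SRF itself had 121, 92.4 and 88.2 CPM in 3D dSRF and 82.8, 79.1 and 79.9 CPM in 3D control (log2 fold change 0.32, SE 0.08, adjusted p = 0.00217, and 0.16 without library 1), a call lost with only the 6 libraries compared in the fit (adjusted p = 0.0919). ELK1, a ternary complex factor that competes with MRTFs for SRF, had 198, 215 and 210 CPM in 3D dSRF and 94.7, 103 and 102 CPM in 3D control (log2 fold change 1.05, SE 0.04, adjusted p = 6.94e-14, and 1.08 without library 1). MYOCD, the muscle member of the family, was not tested, with 2 counts over the 3D dSRF libraries and 1 over the 3D control libraries.

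Contractile genes, the classic targets of SRF in muscle, moved in both directions against control, and most stood far below 3D WT. Of 18 tested contractile genes 7 rose and 5 fell, with a median of 0.49. Without library 1, 6 rose and 7 fell with a median of -0.26, so the direction of the list turned on that library. Members almost absent from both groups passed the filter on low counts through other groups, and their uncertain folds enter these medians. ACTA2 (ENSG00000107796, chr10:88935074-88991339), smooth muscle alpha actin, had 7.35, 13.5 and 11.2 CPM in 3D dSRF and 3.25, 2.92 and 2.41 CPM in 3D control (log2 fold change 1.90, SE 0.24, adjusted p = 9.07e-07, and 2.11 without library 1). The 3D WT libraries held 1250, 1230 and 1230 CPM of ACTA2. ACTG2, smooth muscle gamma actin, had 9.58, 1.17 and 0.0986 CPM in 3D dSRF and no count in 3D control, at least 65.5-fold higher, against 1430, 1340 and 1350 CPM in 3D WT. Library 1 supplied most of that level, and the ACTG2 call was lost without it (adjusted p = 0.093).

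TAGLN, or transgelin, which binds actin in smooth muscle, turned on library 1. It had 17.2, 4.32 and 3.2 CPM in 3D dSRF and 7.95, 13.6 and 13.6 CPM in 3D control, which overlapped, and was not called with all libraries (log2 fold change -0.47, adjusted p = 0.316). Without library 1 it fell by 1.65 on the log2 scale (adjusted p = 0.000511). MYL9, a regulatory myosin light chain, had 116, 51.5 and 46 CPM in 3D dSRF and 111, 128 and 119 CPM in 3D control (log2 fold change -0.74, SE 0.24, adjusted p = 0.0103, and -1.29 without library 1), with library 1 at the control level. That call was lost without library 2 or 3 (adjusted p = 0.0658 and 0.0676) and with only the 6 libraries compared (0.126). CNN1, calponin, had 4 counts over the 3D dSRF libraries and 2 over control, too few for a direction. TPM2, a tropomyosin, had 6.88, 8.27 and 8.68 CPM in 3D dSRF and 15.5, 15 and 19.3 CPM in 3D control (log2 fold change -1.07, SE 0.13, adjusted p = 7.65e-07, and -0.97 without library 1). The titin-binding protein gene MYOM1 rose (3.28 and 3.68 without library 1), as did PDLIM7 (0.43 and 0.50 without library 1), and SMTN, smoothelin, fell (-0.50 and -0.70 without library 1), a call lost with only the 6 libraries compared (adjusted p = 0.0568). The other members that fell were TPM1 and MYLK, at -0.40 and -0.47, and at -0.68 and -0.94 without library 1. Their groups overlapped with library 1 included.

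Cytoplasmic actins followed the same split among libraries. ACTB, beta actin, had 5580, 2610 and 2600 CPM in 3D dSRF and 3750, 3990 and 3730 CPM in 3D control: library 1 was above every control library and libraries 2 and 3 below. With all libraries it was not called (log2 fold change -0.09, adjusted p = 0.7), and without library 1 it fell by 0.55 on the log2 scale (adjusted p = 7.77e-08). ACTG1, gamma actin, added here after its values were seen, had 1750, 378 and 376 CPM in 3D dSRF and 1650, 1710 and 1460 CPM in 3D control (log2 fold change -0.94, SE 0.38, adjusted p = 0.0333, and -2.10 without library 1), and its call was lost with only the 6 libraries compared (adjusted p = 0.249), without 3D dSRF library 2 or 3 (0.162 and 0.16), without 3D control library 1 or 2 (0.0656 and 0.0723) and with no filter on low counts (0.082). Of 36 cytoskeletal MRTF/SRF target genes 20 rose and 9 fell (median 0.25), and without library 1 19 rose and 15 fell (median 0.17). The members with the lowest p were TUFT1, tuftelin (109, 114 and 118 CPM in 3D dSRF and 23.7, 23.4 and 24.2 CPM in 3D control, log2 fold change 2.26, SE 0.04, adjusted p = 1e-18, and 2.29 without library 1), the actin-binding proteins CALD1 (1.29 and 1.36 without library 1) and ACTN4 (0.92 and 0.87 without library 1), the LIM protein FHL2 (1.71 and 1.54 without library 1) and MYL12B (0.83 and 0.82 without library 1). VCL, vinculin of focal adhesions, had 563, 612 and 615 CPM in 3D dSRF and 370, 378 and 366 CPM in 3D control (log2 fold change 0.68, SE 0.04, adjusted p = 4.72e-11, and 0.72 without library 1). In these 6 genes the groups did not overlap, as in 59.8% of all genes tested.

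The CArG box was looked for in RefSeq promoter windows (GRCh38.p14, 250 bases before to 50 after the gene start), on both strands. It was in 7 of 18 contractile genes with a window (38.9%) and 5 of 35 cytoskeletal genes (14.3%), and in 454 of 35116 windows in all (1.29%). Windows of ACTG2 (chr2:73892758-73893057, plus strand) and ACTG1 (chr17:81512750-81513049, minus strand) are shown as the members with matches whose levels turned on library 1. Capitals mark the matches, which start at bases -110 and -73 from the gene start in ACTG2 and -94 in ACTG1, and a match is a run of letters, not a measured site.
ACTG2: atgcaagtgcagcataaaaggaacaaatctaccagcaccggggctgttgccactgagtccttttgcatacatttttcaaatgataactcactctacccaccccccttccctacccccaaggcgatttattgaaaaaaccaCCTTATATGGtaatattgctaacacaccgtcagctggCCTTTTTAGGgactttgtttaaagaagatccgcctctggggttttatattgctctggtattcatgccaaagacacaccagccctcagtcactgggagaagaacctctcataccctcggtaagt
ACTG1: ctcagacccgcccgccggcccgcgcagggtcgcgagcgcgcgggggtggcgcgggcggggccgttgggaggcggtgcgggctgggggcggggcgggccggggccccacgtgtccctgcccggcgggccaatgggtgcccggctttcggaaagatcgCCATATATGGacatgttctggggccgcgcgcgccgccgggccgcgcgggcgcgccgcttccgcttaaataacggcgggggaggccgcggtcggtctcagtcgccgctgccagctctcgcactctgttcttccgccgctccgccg

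**Figure D4:**
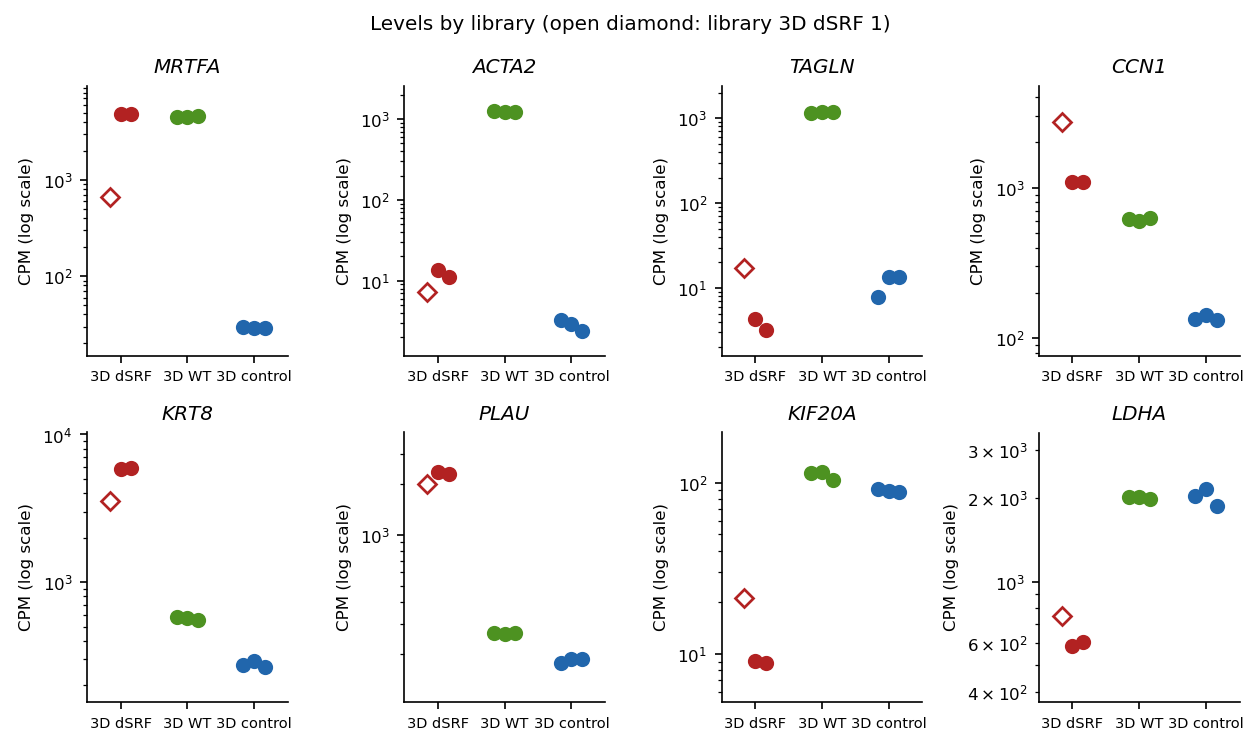
Each panel is a gene, with CPM per library on a log axis in 3D dSRF, 3D WT and 3D control. Open diamonds are library 3D dSRF 1. ACTA2 and TAGLN in 3D dSRF lie far below 3D WT, while KRT8 and PLAU are highest and KIF20A and LDHA lowest in 3D dSRF.

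Genes of the YAP/TEAD and Hippo pathway, which share matrix and cytoskeletal inputs with MRTF, rose more often than they fell. Of 26 members 15 rose and 2, AMOTL1 and ASAP1 (-0.64, and -1.34 without library 1), fell (median 0.39), and without library 1 15 rose and 7 fell (median 0.28). ANKRD1, a classic YAP target, had 1030, 370 and 393 CPM in 3D dSRF and 14.7, 15.3 and 15.9 CPM in 3D control (log2 fold change 5.29, SE 0.30, adjusted p = 1.78e-11, and 4.63 without library 1). CCN1, a secreted matricellular protein, had 2720, 1090 and 1090 CPM in 3D dSRF and 135, 142 and 133 CPM in 3D control (log2 fold change 3.58, SE 0.24, adjusted p = 1.94e-10, and 2.99 without library 1). CCN2, its relative, had 125, 28.1 and 25.7 CPM in 3D dSRF and 9.63, 10.7 and 11.4 CPM in 3D control (log2 fold change 2.50, SE 0.41, adjusted p = 2.98e-05, and 1.34 without library 1). In all 3 genes library 1 was the highest. Every dSRF library was above every control library in them, as for 31% of all genes tested. The kinase NUAK2 had 133, 96.2 and 97.9 CPM in 3D dSRF and 7.6, 7.42 and 7.12 CPM in 3D control (log2 fold change 3.89, SE 0.11, adjusted p = 3.6e-16, and 3.71 without library 1). The Hippo scaffold WWC1 rose (1.88 and 1.93 without library 1) and AMOTL1, which binds YAP, fell (-0.65 and -0.67 without library 1).

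Epithelial genes were higher in the dSRF line. Among epithelial junction and simple keratin genes 23 of 29 tested members rose and none fell, with a median of 1.96 (24 rose without library 1, median 2.21). Members such as OVOL2, with 33 counts over 3D dSRF and 0 over 3D control, passed the filter on low counts through groups where they are higher. This count and median therefore describe the list and test nothing. The range of the summed TPM of the list was 8190 to 16200 in 3D dSRF and 1450 to 1520 in 3D control. KRT8 (ENSG00000170421, chr12:52897187-52949954), a keratin of simple epithelium, had 3570, 5810 and 5890 CPM in 3D dSRF and 276, 293 and 268 CPM in 3D control (log2 fold change 4.19, SE 0.13, adjusted p = 9.9e-16, and 4.39 without library 1). KRT18, its filament partner, had 1640, 3180 and 3210 CPM in 3D dSRF and 111, 123 and 115 CPM in 3D control (log2 fold change 4.52, SE 0.18, adjusted p = 5.09e-14, and 4.78 without library 1). KRT19 had 836, 1910 and 1950 CPM in 3D dSRF and 164, 166 and 138 CPM in 3D control (log2 fold change 3.33, SE 0.21, adjusted p = 6.55e-11, and 3.63 without library 1). These keratins were lowest in library 1 within the dSRF group. They were still above every control library there, and 31% of all genes tested were higher without overlap. KRT7 had 409, 396 and 379 CPM in 3D dSRF and 101, 106 and 104 CPM in 3D control (log2 fold change 1.92, SE 0.06, adjusted p = 5.66e-16, and 1.89 without library 1). DSP, desmoplakin of desmosomes, had 680, 1270 and 1330 CPM in 3D dSRF and 171, 159 and 156 CPM in 3D control (log2 fold change 2.75, SE 0.15, adjusted p = 8.08e-12, and 3.00 without library 1). CDH1, E-cadherin, stayed near 0 at 0.473, 0.427 and 0.197 CPM in 3D dSRF and 0.29, 0.117 and 0.1 CPM in 3D control, was not called (adjusted p = 0.0915), and had the opposite sign on the TPM scale (-0.31 with a pseudocount of 1). CDH1 passed the test without 3D control library 1 (adjusted p = 0.0339) or 3D dSRF library 3 (0.0447).

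Basal, stress and hair keratins rose in 8 of 9 tested members, with none lower. Their median was 6.21, or 3.89 with genes at 0 in control set to their bound, and without library 1 7 rose and none fell with a median of 6.64. KRT17 had 51, 109 and 124 CPM in 3D dSRF and 0.232, 0.0585 and 0.0502 CPM in 3D control (log2 fold change 9.66, SE 0.42, adjusted p = 3.42e-13, and 9.96 without library 1), and the 3D WT libraries had 95.9, 95.4 and 96.2 CPM. KRT15, of basal layers, had 34.6, 165 and 161 CPM in 3D dSRF and 1.39, 1.52 and 1.91 CPM in 3D control (log2 fold change 6.21, SE 0.46, adjusted p = 6.32e-10, and 6.64 without library 1). KRT80 rose by 1.07, and by 1.08 without library 1, and KRT6A had 3.44, 1.98 and 1.58 CPM in 3D dSRF and no count in 3D control (at least 42.2-fold). Members at or near 0 in every other group passed the filter on low counts through the dSRF libraries, so this count and median describe the list and test nothing. Near-identical copies and pseudogenes exist for KRT6A, KRT16 and KRT17. Luminal breast regulators did not move together: 4 of 7 tested rose and 2, GATA3 and EHF, fell, with the same counts without library 1, and 9 of the 16 listed had too few counts. FOXA1, a pioneer factor of luminal cells, had 0.817, 19.5 and 18.2 CPM in 3D dSRF and 0, 0 and 0.0502 CPM in 3D control (log2 fold change 8.99, SE 1.19, adjusted p = 3.46e-06, and 9.53 without library 1), nearly all in libraries 2 and 3. FOXA1 passed the filter on low counts through groups where it is higher, so the luminal count describes the list and tests nothing. ELF3 rose (2.09 and 2.49 without library 1), as did the receptor ERBB3 (1.67 and 1.83 without library 1), and GATA3 fell (-0.93 and -1.48 without library 1), a call lost with only the 6 libraries compared (adjusted p = 0.073). ESR1 and PGR, the oestrogen and progesterone receptors, had at most 1 count over all 6 libraries each.

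Mesenchymal genes were mixed. Of 13 tested, CDH2, S100A4, FOXC1 and MSN rose and VIM, CDH11, ZEB1, SNAI1 and SNAI2 fell, 4 against 5 (3 and 8 without library 1). The rise of CDH2, N-cadherin, rested on library 1: its log2 fold change was 1.71 with all libraries, with overlapping groups, and -0.01 without library 1 (adjusted p = 0.996). CDH11 and SNAI2 were at -1.28 and -1.14, and at -2.81 and -1.80 without library 1. VIM, vimentin, had 1160, 1530 and 1420 CPM in 3D dSRF and 1690, 1740 and 1650 CPM in 3D control (log2 fold change -0.31, SE 0.07, adjusted p = 0.00102, and -0.20 without library 1), and its call was lost on the TPM scale (adjusted p = 0.0821) and with only the 6 libraries compared (0.0725). The repressors SNAI1 and ZEB1, which silence epithelial genes, fell: SNAI1 had 0.258, 1.07 and 0.444 CPM in 3D dSRF and 2.55, 3.8 and 3.86 CPM in 3D control (log2 fold change -2.55, SE 0.34, adjusted p = 1.76e-06, and -2.18 without library 1), and ZEB1 had 41.9, 28.5 and 31.5 CPM in 3D dSRF and 57.4, 56.4 and 48.9 CPM in 3D control (log2 fold change -0.67, SE 0.10, adjusted p = 6.51e-06, and -0.85 without library 1). FOXC1 rose (0.93 and 1.08 without library 1), as did MSN, moesin (0.63 and 0.68 without library 1). Among the genes known to be high in the line 6 of 14 rose and 3, VIM, ANXA1 (-0.82, and -1.25 without library 1) and MET (-0.70, and -1.12), fell, and without library 1 5 rose and 7 fell.

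Matrix genes moved in both directions. Of 26 tested interstitial matrix and matricellular genes 6 rose and 9 fell (median -0.02, and 0.02 on log2(TPM + 1)), and without library 1 7 rose and 11 fell (median -0.16). TNC, tenascin C, had 20.4, 10.5 and 10.3 CPM in 3D dSRF and 52.5, 62.2 and 59.3 CPM in 3D control (log2 fold change -2.07, SE 0.24, adjusted p = 3.45e-07, and -2.48 without library 1), while 3D WT had 1080, 1040 and 1100 CPM. The fibrillar collagen gene COL5A1 fell (-1.01 and -0.97 without library 1) and so did COL6A2 (-0.82 and -0.77 without library 1). FBLN1, fibulin 1, had 13.5, 36.9 and 38.6 CPM in 3D dSRF and 0.348, 1.11 and 0.853 CPM in 3D control (log2 fold change 5.25, SE 0.41, adjusted p = 1.03e-09, and 5.59 without library 1), and the proteoglycan gene SPOCK1 rose by 2.83, and by 2.76 without library 1, a call lost on log2(TPM + 1) (adjusted p = 0.0683). The matrix genes of this list therefore had rises and falls of several log2 units side by side. Of 20 basement membrane genes 11 rose and 6 fell (median 0.59), with the same counts and a median of 0.47 without library 1. COL4A1, type IV collagen, had 215, 235 and 237 CPM in 3D dSRF and 95.5, 103 and 102 CPM in 3D control (log2 fold change 1.20, SE 0.05, adjusted p = 4.07e-14, and 1.24 without library 1). LAMA3, a laminin chain of epithelial basement membranes, had 22.8, 19 and 21.4 CPM in 3D dSRF and 88.5, 87.7 and 95 CPM in 3D control (log2 fold change -2.10, SE 0.08, adjusted p = 4.23e-14, and -2.16 without library 1), and COL18A1 fell (-1.48 and -1.54 without library 1).

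Matrix receptors and proteases rose more often than they fell. Of 15 tested integrin genes 8 rose and 1 fell, the collagen-binding subunit gene ITGA10 (log2 fold change -2.12). Without library 1 8 rose and 3 fell, with ITGA5 (-0.32, adjusted p = 0.00771) and ITGA6 (-0.75, adjusted p = 1.37e-14) also lower. ITGB4, the hemidesmosome integrin that binds laminin, had 890, 1460 and 1410 CPM in 3D dSRF and 243, 222 and 206 CPM in 3D control (log2 fold change 2.49, SE 0.13, adjusted p = 1.68e-12, and 2.68 without library 1). ITGB8, which activates latent TGF-beta, had 8.34, 33.8 and 36.3 CPM in 3D dSRF and 1.1, 0.877 and 0.803 CPM in 3D control (log2 fold change 4.81, SE 0.46, adjusted p = 1.95e-08, and 5.24 without library 1). Of 25 tested protease and inhibitor genes 12 rose and 4, MMP14, MMP16, TIMP3 and ADAMTS15, fell (median 0.38), and without library 1 13 rose and 6 fell. PLAU, urokinase, which generates plasmin at the cell surface, had 1990, 2340 and 2270 CPM in 3D dSRF and 176, 186 and 185 CPM in 3D control (log2 fold change 3.59, SE 0.12, adjusted p = 2.45e-15, and 3.66 without library 1). PLAT, tissue plasminogen activator, had 359, 824 and 832 CPM in 3D dSRF and 52, 60.6 and 51.7 CPM in 3D control (log2 fold change 3.62, SE 0.22, adjusted p = 3.88e-11, and 3.92 without library 1). Every dSRF library was far above every control library for both plasminogen activators, and 31% of all genes tested were higher without overlap. The urokinase receptor PLAUR rose (0.91 and 0.98 without library 1), with the membrane metalloproteases MMP24 (3.75 and 3.98 without library 1) and MMP15 (2.34 and 2.59 without library 1).

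Proliferation genes were lower throughout. All 32 tested mitosis and chromosome segregation genes fell, with a median of -2.17, and all 32 fell without library 1 with a median of -2.77. KIF20A (ENSG00000112984, chr5:138178719-138187715), a mitotic kinesin, had 21.1, 9.08 and 8.87 CPM in 3D dSRF and 92, 89.2 and 88.2 CPM in 3D control (log2 fold change -2.77, SE 0.20, adjusted p = 5.28e-10, and -3.32 without library 1). CCNB2, a mitotic cyclin, had 19.4, 10.5 and 10.9 CPM in 3D dSRF and 51, 51.5 and 48.3 CPM in 3D control (log2 fold change -1.88, SE 0.14, adjusted p = 4.96e-10, and -2.23 without library 1). CENPF, of the kinetochore, had 189, 150 and 157 CPM in 3D dSRF and 535, 501 and 495 CPM in 3D control (log2 fold change -1.63, SE 0.07, adjusted p = 2.25e-13, and -1.74 without library 1). Library 1 lay between libraries 2 and 3 and control for these genes, closer to libraries 2 and 3 on the log2 scale. No dSRF library reached a control library in them, and 28.8% of all genes tested were lower without overlap. TPX2, a spindle assembly factor, and the phosphatase CDC25B fell by 1.19 and 0.76 on the log2 scale, and without library 1 by 1.35 and 0.76.

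Replication genes fell in the same way. All 36 tested DNA replication and repair genes were lower (median -1.52, and -1.91 without library 1). MCM4, a subunit of the replicative helicase, had 109, 86.4 and 81.3 CPM in 3D dSRF and 250, 278 and 260 CPM in 3D control (log2 fold change -1.51, SE 0.08, adjusted p = 5.21e-12, and -1.65 without library 1). LIG1, the ligase that seals Okazaki fragments, had 26.3, 18.1 and 20.9 CPM in 3D dSRF and 89.1, 87.9 and 99.7 CPM in 3D control (log2 fold change -2.08, SE 0.10, adjusted p = 6.59e-13, and -2.24 without library 1). POLA1, BRCA1 and BRCA2, of priming and homologous repair, fell by 1.38, 1.34 and 1.46 on the log2 scale, and by 1.47, 1.38 and 1.59 without library 1. All 15 tested replication-dependent histone genes fell (median -2.29, and -3.52 without library 1). H2BC4, a core histone, had 86.1, 23.2 and 25.5 CPM in 3D dSRF and 281, 246 and 248 CPM in 3D control (log2 fold change -2.51, SE 0.31, adjusted p = 7.95e-07, and -3.41 without library 1). Most transcripts of these genes lack a polyA tail, so their measured level can depend on which RNA was used. Histone genes held 0.0992%, 0.0267% and 0.0314% of counts in 3D dSRF and 0.272%, 0.259% and 0.249% in 3D control. Their transcripts lack poly(A) tails and are near-identical copies, so single members are uncertain.

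Cell cycle regulators moved in both directions. Of 21 tested cyclin, CDK inhibitor and E2F genes 4 rose and 14 fell (median -1.08), and the 4 were CCND1, CCND2, CDKN1A and E2F3 (0.33, and 0.12 without library 1). Without library 1 6 rose and 15 fell (median -1.22). E2F2, an activator of S phase genes, had 8.59, 3.74 and 4.49 CPM in 3D dSRF and 44, 49.6 and 45 CPM in 3D control (log2 fold change -3.03, SE 0.20, adjusted p = 6.78e-11, and -3.49 without library 1). CDK2, the kinase of S phase entry, had 42.4, 31.9 and 33 CPM in 3D dSRF and 69.4, 79.7 and 77.8 CPM in 3D control (log2 fold change -1.08, SE 0.08, adjusted p = 4.59e-10, and -1.22 without library 1). The CDK inhibitors CDKN2C and CDKN2D fell as well (-3.10 and -3.30 without library 1, and -1.80 and -1.99 without library 1), and CDKN2C had 13.9, 9.13 and 10.4 CPM in 3D dSRF and 98.3, 99 and 90.9 CPM in 3D control. CDK activators and inhibitors were thus among the genes that fell.

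The letters TTTGAA, the cell cycle homology region described for mitotic promoters, were in 18 of 27 mitosis genes with a promoter window (66.7%) and in 5324 of 35116 windows in all (15.2%), on either strand. CCNB2 (chr15:59104896-59105195, plus strand) and CENPF (chr1:214602945-214603244, plus strand) are shown as members that fell and hold a match. Capitals mark the match, which starts at base -29 from the gene start in CCNB2 and at base 41 after it in CENPF.
CCNB2: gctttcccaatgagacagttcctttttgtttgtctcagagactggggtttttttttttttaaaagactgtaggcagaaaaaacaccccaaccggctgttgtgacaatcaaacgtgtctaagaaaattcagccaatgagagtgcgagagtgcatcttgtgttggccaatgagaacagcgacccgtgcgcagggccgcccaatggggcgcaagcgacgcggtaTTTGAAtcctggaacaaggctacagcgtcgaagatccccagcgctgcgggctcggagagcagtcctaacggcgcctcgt
CENPF: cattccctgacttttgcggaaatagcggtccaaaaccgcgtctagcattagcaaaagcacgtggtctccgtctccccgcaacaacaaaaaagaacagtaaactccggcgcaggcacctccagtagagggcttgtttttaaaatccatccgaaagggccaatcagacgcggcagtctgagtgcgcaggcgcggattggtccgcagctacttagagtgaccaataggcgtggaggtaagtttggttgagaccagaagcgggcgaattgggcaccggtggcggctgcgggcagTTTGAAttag

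Hypoxia and glycolysis genes were lower. Of 26 hypoxia target genes 18 fell and 3, VEGFA, ADM and P4HA2, rose (median -0.71, and without library 1 19 fell and 4 rose with a median of -0.78), and of 21 glycolysis enzyme genes 18 fell and 1, the lactate transporter gene SLC16A1, rose (median -0.60, and without library 1 19 fell and 2 rose with a median of -0.72). LDHA, lactate dehydrogenase, had 749, 585 and 605 CPM in 3D dSRF and 2030, 2160 and 1870 CPM in 3D control (log2 fold change -1.64, SE 0.09, adjusted p = 4.74e-12, and -1.77 without library 1). PDK1, which keeps pyruvate out of mitochondria, had 22.9, 25 and 27.3 CPM in 3D dSRF and 113, 107 and 118 CPM in 3D control (log2 fold change -2.17, SE 0.08, adjusted p = 2.42e-14, and -2.11 without library 1). PFKFB4, a regulator of glycolytic flux, had 4.86, 7.31 and 7.64 CPM in 3D dSRF and 50.1, 53.8 and 53.1 CPM in 3D control (log2 fold change -2.99, SE 0.14, adjusted p = 8.24e-13, and -2.81 without library 1). In all 3 the dSRF libraries lay below every control library with library 1 included, as for 28.8% of all genes tested. BNIP3, a mitophagy receptor, fell (-2.34 and -2.75 without library 1), as did PFKL (-1.67 and -1.82 without library 1) and GPI (-1.15 and -1.37 without library 1). ADM, adrenomedullin, also a hypoxia target, rose (74.9, 88.2 and 92.1 CPM in 3D dSRF and 34.4, 33.3 and 30.7 CPM in 3D control, log2 fold change 1.37, SE 0.07, adjusted p = 7.84e-13, and 1.46 without library 1).

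The core of the hypoxia response element, ACGTG, was in 11 of 21 hypoxia genes (52.4%) and 8 of 20 glycolysis genes (40%) with a window, and in 7518 of 35116 windows in all (21.4%), on either strand. CA9 (chr9:35673678-35673977, plus strand) and ALDOC (chr17:28576846-28577145, minus strand) are shown as the members among the 15 largest falls with a match, in capitals. CA9 has a match at base -18 from the gene start. ALDOC has matches at -240, -239 and -28, the first 2 overlapping on opposite strands.
CA9: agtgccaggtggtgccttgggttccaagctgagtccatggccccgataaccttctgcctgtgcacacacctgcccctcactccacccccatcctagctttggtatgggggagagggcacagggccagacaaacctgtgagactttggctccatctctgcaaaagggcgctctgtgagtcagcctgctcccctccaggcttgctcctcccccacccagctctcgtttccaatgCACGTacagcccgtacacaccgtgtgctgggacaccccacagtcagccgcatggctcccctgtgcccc
ALDOC: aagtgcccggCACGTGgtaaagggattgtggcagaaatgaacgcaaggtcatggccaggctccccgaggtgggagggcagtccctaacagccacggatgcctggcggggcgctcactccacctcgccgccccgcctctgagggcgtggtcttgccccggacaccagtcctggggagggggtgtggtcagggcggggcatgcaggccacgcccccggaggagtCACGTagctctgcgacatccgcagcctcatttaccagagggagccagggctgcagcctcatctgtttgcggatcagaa

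Sterol and fatty acid synthesis genes, driven by SREBP factors, rose in 20 of 33 members and fell in 5, MVK, LSS, SREBF1, INSIG1 and ELOVL6 (median 0.48, and without library 1 21 rose and 7 fell with a median of 0.56). STARD4, a sterol carrier, had 138, 161 and 161 CPM in 3D dSRF and 57.8, 56.9 and 55.4 CPM in 3D control (log2 fold change 1.43, SE 0.06, adjusted p = 4.23e-14, and 1.50 without library 1). ACLY, which makes cytosolic acetyl-CoA, had 782, 948 and 925 CPM in 3D dSRF and 349, 375 and 364 CPM in 3D control (log2 fold change 1.29, SE 0.05, adjusted p = 9.66e-14, and 1.37 without library 1). The desaturase gene FADS1 had 563, 873 and 833 CPM in 3D dSRF and 225, 209 and 204 CPM in 3D control (log2 fold change 1.83, SE 0.10, adjusted p = 6.28e-12, and 2.00 without library 1). In all 3 genes every dSRF library was above every control library, as for 31% of all genes tested.

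Targets of ATF4, the transcription factor of the amino acid response, rose more often than they fell. Of 28 tested ATF4 target and serine synthesis genes 19 rose and 5, ATF5, DDIT4, ALDH1L2, CEBPB and SLC38A2, fell (median 0.81, and 0.51 without library 1, where 19 rose and 7 fell). CHAC1, which degrades glutathione, had 26.6, 23 and 24.8 CPM in 3D dSRF and 1.22, 1.11 and 1.5 CPM in 3D control (log2 fold change 4.26, SE 0.16, adjusted p = 3.09e-14, and 4.21 without library 1). PSAT1, of serine synthesis, had 200, 194 and 201 CPM in 3D dSRF and 52, 55.9 and 55.4 CPM in 3D control (log2 fold change 1.86, SE 0.07, adjusted p = 2.42e-14, and 1.86 without library 1). VLDLR, a lipoprotein receptor, had 162, 147 and 152 CPM in 3D dSRF and 28.1, 32.7 and 32.6 CPM in 3D control (log2 fold change 2.30, SE 0.08, adjusted p = 4.4e-15, and 2.26 without library 1). These 3 genes were level across the dSRF libraries, library 1 included. SHMT2 and WARS1 rose by 1.00 and 1.03, and by 1.03 and 0.98 without library 1. Chaperones of the endoplasmic reticulum did not move together: 6 of 22 rose and 8 fell, and without library 1 10 rose and 10 fell. HYOU1 (0.66 and 0.65 without library 1) and DNAJB11 (0.99 and 1.03 without library 1) were higher and MANF (-0.75 and -0.89 without library 1) lower.

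In the list of NRF2 targets, ferritins and metallothioneins 9 of 25 tested members rose and 12 fell (9 and 13 without library 1). The metallothioneins named by the rule, which bind zinc and copper, rose. MT1X had 105, 228 and 236 CPM in 3D dSRF and 9.51, 10 and 10.2 CPM in 3D control (log2 fold change 4.26, SE 0.22, adjusted p = 4.07e-12, and 4.54 without library 1). MT1E had 235, 189 and 175 CPM in 3D dSRF and 30.2, 34.1 and 37.1 CPM in 3D control (log2 fold change 2.56, SE 0.10, adjusted p = 3.54e-14, and 2.43 without library 1), and MT1F rose by 3.71, and by 3.92 without library 1. Metallothionein copies share reads, so single members are uncertain. FTL, ferritin light chain, had 1540, 1470 and 1470 CPM in 3D dSRF and 4080, 4030 and 3570 CPM in 3D control (log2 fold change -1.38, SE 0.06, adjusted p = 1.28e-13, and -1.41 without library 1). FTL thus moved opposite to the metallothioneins named here. Of 7 aryl hydrocarbon receptor genes none rose and 5 fell, AHR, ARNT, AHRR, CYP1B1 and NQO1, and without library 1 none rose and 6 fell. The call of ARNT (-0.17) was lost without library 1 (adjusted p = 0.0772). Among them were CYP1B1 (497, 510 and 509 CPM in 3D dSRF and 1530, 1580 and 1550 CPM in 3D control, log2 fold change -1.62, SE 0.06, adjusted p = 5.72e-15, and -1.61 without library 1), AHRR (-1.55 and -1.38 without library 1) and AHR (-1.36 and -1.83 without library 1).

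Immediate early genes rose in 14 of 25 members and fell in 4, EGR1, IER5, DUSP2 and DUSP10, all further from 0 without library 1 (median 0.52, 13 and 7 without library 1). DUSP1, a MAP kinase phosphatase, had 125, 224 and 213 CPM in 3D dSRF and 8.23, 8.89 and 10.2 CPM in 3D control (log2 fold change 4.36, SE 0.20, adjusted p = 5.66e-13, and 4.58 without library 1). ATF3, a stress-induced transcription factor, had 27.6, 22.8 and 23.8 CPM in 3D dSRF and 4, 3.74 and 3.76 CPM in 3D control (log2 fold change 2.69, SE 0.11, adjusted p = 5.98e-14, and 2.60 without library 1). DUSP5 was highest in library 1, at 277, 144 and 143 CPM in 3D dSRF and 24.8, 24 and 24.2 CPM in 3D control (log2 fold change 2.95, SE 0.17, adjusted p = 2.27e-11, and 2.56 without library 1). DUSP6 and NR4A1 rose by 1.94 and 2.45, and by 2.18 and 2.45 without library 1. Of 17 EGF family and feedback genes 7 rose and 3, EGF, EREG (-0.76, and -1.59 without library 1) and SPRY1, fell, and without library 1 7 rose and 8 fell. ERBB4 had 0.945, 1.65 and 1.58 CPM in 3D dSRF and no count in control (at least 25.2-fold), and the feedback inhibitor SPRY1 had 1.07, 0.747 and 0.592 CPM in 3D dSRF and 5.57, 4.62 and 4.56 CPM in 3D control (log2 fold change -2.59, SE 0.23, adjusted p = 5.94e-09, and -2.87 without library 1).

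Secreted signals changed in both directions, and library 1 bears on the count. Of 26 tested chemokine, interleukin and colony-stimulating factor genes 13 rose and 9 fell with a median of 0.80, and without library 1 10 rose and 13 fell with a median of -0.26. LIF, an interleukin-6 family cytokine, had 165, 183 and 184 CPM in 3D dSRF and 26.1, 27.2 and 27.9 CPM in 3D control (log2 fold change 2.71, SE 0.08, adjusted p = 6.13e-16, and 2.76 without library 1). CXCL16 had 103, 162 and 156 CPM in 3D dSRF and 15.9, 17.4 and 14.2 CPM in 3D control (log2 fold change 3.15, SE 0.13, adjusted p = 1.3e-13, and 3.33 without library 1). CX3CL1, fractalkine, had 2.97, 2.14 and 2.22 CPM in 3D dSRF and 36, 35.5 and 28.7 CPM in 3D control (log2 fold change -3.76, SE 0.21, adjusted p = 6.38e-12, and -3.94 without library 1). TNFSF10, the death ligand TRAIL, had 13.1, 11.9 and 11.9 CPM in 3D dSRF and 67, 67.3 and 60.6 CPM in 3D control (log2 fold change -2.40, SE 0.11, adjusted p = 4.67e-13, and -2.45 without library 1). These 4 genes kept their direction and call without library 1, and IL18 rose too (2.14 and 2.29 without library 1). IL24 rose with all libraries (log2 fold change 6.78) and by 1.45 without library 1, and its call was lost with only the 6 libraries compared (adjusted p = 0.0539). IL6, counted among the rises, turned on library 1. Its log2 fold change was 1.12 with all libraries (adjusted p = 0.0409) and -0.45 without library 1 (adjusted p = 5.35e-05).

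Of 42 tested interferon response genes 22 rose and 17 fell (median 0.25, and 20 and 17 without library 1). IFI6 had 49.3, 82.6 and 85.5 CPM in 3D dSRF and 9.97, 8.36 and 8.53 CPM in 3D control (log2 fold change 3.02, SE 0.17, adjusted p = 1.3e-11, and 3.23 without library 1). GBP2, a guanylate-binding protein, had 9.97, 7.9 and 7.2 CPM in 3D dSRF and 57.9, 56.4 and 51.2 CPM in 3D control (log2 fold change -2.72, SE 0.10, adjusted p = 2.42e-14, and -2.87 without library 1). RIGI, an RNA sensor, had 53.6, 74.4 and 74.6 CPM in 3D dSRF and 32.6, 32 and 30 CPM in 3D control (log2 fold change 1.10, SE 0.09, adjusted p = 2.36e-09, and 1.24 without library 1), with 247, 252 and 244 CPM in 3D WT. These 3 genes moved both ways, and in the same direction in each dSRF library. Of 29 TGF-beta and BMP pathway genes 10 rose and 12 fell (11 and 16 without library 1). TGFB2 was among the rises with all libraries (1.18) and among the falls without library 1 (-0.44). The ligand TGFB1 had 38.1, 34.5 and 29.4 CPM in 3D dSRF and 103, 93.3 and 98.9 CPM in 3D control (log2 fold change -1.53, SE 0.09, adjusted p = 3.03e-11, and -1.63 without library 1). BMP4 had 50.1, 31.4 and 27 CPM in 3D dSRF and 133, 134 and 116 CPM in 3D control (log2 fold change -1.82, SE 0.15, adjusted p = 1.77e-09, and -2.13 without library 1), and the coreceptor TGFBR3 fell (-1.71 and -1.70 without library 1). Both ligands were below control in every dSRF library, as for 28.8% of all genes tested. Of 35 Wnt and Notch genes 16 rose and 13 fell (15 and 14 without library 1). DKK1 was among the rises with all libraries (2.18) and among the falls without library 1 (-0.30). DKK3, a secreted Dickkopf family protein, had 13.6, 22.5 and 26.7 CPM in 3D dSRF and 0.638, 0.818 and 0.702 CPM in 3D control (log2 fold change 4.85, SE 0.23, adjusted p = 5.08e-13, and 5.08 without library 1). LFNG, which modifies Notch, had 1.98, 5.07 and 4.14 CPM in 3D dSRF and 37.1, 35.3 and 37.3 CPM in 3D control (log2 fold change -3.30, SE 0.21, adjusted p = 6.24e-11, and -2.99 without library 1). The Notch ligand JAG2 and the Wnt receptor FZD1 fell by 1.32 and 1.35 on the log2 scale, and by 1.31 and 1.20 without library 1.

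Cytosolic ribosomal protein genes were lower. Of 32 tested cytosolic ribosomal protein genes none rose and 31 fell (median -0.47, and -0.63 without library 1). RPS2 had 568, 319 and 326 CPM in 3D dSRF and 821, 866 and 798 CPM in 3D control (log2 fold change -1.03, SE 0.13, adjusted p = 1.43e-06, and -1.36 without library 1). These genes held 1.2%, 0.889% and 0.937% of counts in 3D dSRF and 1.41%, 1.5% and 1.41% in 3D control. Of 13 mitochondrial genome genes none rose and 7 fell with a median of -0.69, and without library 1 5 of 13 fell, against 35.6% of all genes lower in that fit. The 13 genes held 0.448%, 0.851% and 0.564% of counts in 3D dSRF and 0.94%, 1.15% and 1.45% in 3D control. MT-CO3 had 464, 855 and 535 CPM in 3D dSRF and 1240, 1600 and 1910 CPM in 3D control (log2 fold change -1.36, SE 0.29, adjusted p = 0.000456, and -1.19 without library 1). The part of these shares in the other results was not tested.

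Leukocyte and endothelial marker genes were mostly near 0, and most fibroblast and pericyte markers were not under 1 TPM in all 6 libraries. Of 12 leukocyte markers 9 were under 1 TPM in all 6 libraries, with PTPRC at 2 counts over 3D dSRF and 2 over 3D control and MS4A1 at 0. The summed TPM of the leukocyte list was 140 to 218 in 3D dSRF and 59.7 to 64.1 in 3D control, most of it CD68, a lysosomal protein also made outside leukocytes (142, 186 and 170 CPM in 3D dSRF and 48.2, 53.5 and 53.3 CPM in 3D control). CSF1R had 5.33, 26.2 and 29 CPM in 3D dSRF and 4.81, 5.14 and 4.21 CPM in 3D control (log2 fold change 2.09, SE 0.36, adjusted p = 4.22e-05, and 2.55 without library 1). Of 10 endothelial markers 7 were under 1 TPM in all 6 libraries, CLDN5 at 0, and the list summed to 24.3 to 40.8 TPM in 3D dSRF and 7.65 to 9.67 TPM in 3D control. VWF had 6.02, 35 and 36 CPM in 3D dSRF and 0.232, 0 and 0.0502 CPM in 3D control (log2 fold change 8.01, SE 0.75, adjusted p = 1.67e-08, and 8.48 without library 1), and KDR had 22.7, 5.23 and 4.73 CPM in 3D dSRF and 1.1, 1.23 and 1.25 CPM in 3D control (log2 fold change 3.19, SE 0.44, adjusted p = 2.94e-06, and 2.05 without library 1). Of 10 fibroblast and pericyte markers 3 were under 1 TPM in all 6 libraries, with DCN and THY1 at 0, and the list summed to 97.2 to 149 TPM in 3D dSRF and 34.8 to 38.5 TPM in 3D control. COL1A1 rose with overlapping groups, at 11.1, 116 and 99.9 CPM in 3D dSRF and 11.8, 11.5 and 14.8 CPM in 3D control (adjusted p = 9.22e-05). RGS5 had 94.2, 36.1 and 43.5 CPM in 3D dSRF and 3.6, 4.91 and 4.31 CPM in 3D control (log2 fold change 3.76, SE 0.27, adjusted p = 4.2e-10, and 3.22 without library 1) while PDGFRB fell (-2.07 and -2.11 without library 1). The part of these marker genes in the other results was not tested.

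Against 3D WT, with MRTFA at a like level in libraries 2 and 3, the dSRF line held far less of most contractile genes. This comparison and those with control share the 3D dSRF libraries. With all libraries 9869 of 14986 genes were called (65.9%), 5129 higher (34.2%) and 4740 lower (31.6%), and 11107 without library 1 (72.9%). MRTFA itself was not called (log2 difference -0.39, adjusted p = 0.391). Of 18 contractile genes 17 were lower in 3D dSRF than in 3D WT and 1 was higher, with a median of -4.11 (-5.08 without library 1). Members almost absent from 3D dSRF, such as CNN1, passed the filter on low counts through groups where they are higher. This count and median therefore describe the list and test nothing. Of 36 cytoskeletal genes 29 were lower and 5 higher (median -0.88, and 31 and 4 without library 1). ACTA2 had 7.35, 13.5 and 11.2 CPM in 3D dSRF and 1250, 1230 and 1230 CPM in 3D WT (log2 difference -6.86, SE 0.21, adjusted p = 1.52e-15, and -6.65 without library 1). TAGLN had 17.2, 4.32 and 3.2 CPM in 3D dSRF and 1150, 1170 and 1190 CPM in 3D WT (log2 difference -7.11, SE 0.43, adjusted p = 4.26e-11, and -8.29 without library 1). MYL9 had 116, 51.5 and 46 CPM in 3D dSRF and 1760, 1920 and 2020 CPM in 3D WT (log2 difference -4.74, SE 0.27, adjusted p = 1.92e-11, and -5.29 without library 1). In each of them library 1 was also far below 3D WT.

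By the naming rule the largest falls against 3D WT were LMOD1, which nucleates muscle actin filaments, ACTG2, TRAC, GIPC3, the smooth muscle channel subunit KCNMB1 and CA9. LMOD1 had 0.0859, 0.16 and 0.148 CPM in 3D dSRF and 60.6, 64.4 and 59.2 CPM in 3D WT (log2 difference -8.82, SE 0.34, adjusted p = 3.93e-14, and -8.58 without library 1). TRAC and GIPC3 had no count in 3D dSRF and 2.2, 1.89 and 2.28 and 2.34, 1.37 and 1.99 CPM in 3D WT. The largest rises were IGFL1, CYP4B1, NECAB1, KLHDC7A, LCE3D and MAPK4, of which CYP4B1, NECAB1, KLHDC7A, LCE3D and MAPK4 had no count in 3D WT. NECAB1, a calcium-binding protein, had 11.8, 70.2 and 75.4 CPM in 3D dSRF. Epithelial genes were higher in 20 of 29 members and lower in 4 (median 1.48, and 22 and 5 without library 1), and mitosis genes lower in all 32 (median -2.12). The epithelial count again describes the list and tests nothing. KRT8 had 3570, 5810 and 5890 CPM in 3D dSRF and 582, 574 and 554 CPM in 3D WT (log2 difference 3.16, SE 0.12, adjusted p = 3.05e-14, and 3.36 without library 1). CA9 had 0.0859, 0.16 and 0 CPM in 3D dSRF and 13.2, 12 and 11.4 CPM in 3D WT (log2 difference -7.13, SE 0.44, adjusted p = 3.12e-11, and -7.19 without library 1).

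Some dSRF differences depended on culture. The difference between dSRF and control on matrigel minus that in plates was called for 4379 of 14986 genes (29.2%), 2197 above 0 (14.7%) and 2182 below (14.6%). Without library 1 6680 of 15246 genes were called (43.8%), 3027 above 0 (19.9%) and 3653 below (24%), so this count depends on that library. CCN1 had 2720, 1090 and 1090 CPM in 3D dSRF and 135, 142 and 133 in 3D control, with 1900, 1770 and 2000 in 2D dSRF and 1410, 1480 and 1410 in 2D control (log2 difference 3.18, SE 0.32, adjusted p = 5.25e-07, and 2.60 without library 1). TNC had 20.4, 10.5 and 10.3 CPM in 3D dSRF and 52.5, 62.2 and 59.3 in 3D control, with 25.8, 33.5 and 53.3 in 2D dSRF and 18.4, 12.5 and 20 in 2D control (log2 difference -3.22, SE 0.34, adjusted p = 1.01e-06, and -3.64 without library 1). In TNC the dSRF libraries were below control on matrigel and above it in plates, with no overlap in either culture. Of 36 cytoskeletal genes 19 differed upward and 1 downward, and of 26 YAP/TEAD genes 15 upward and 2 downward, with 19 and 7, and 17 and 4, without library 1.

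Replication genes were further below control on matrigel than in plates: 25 of 36 differed downward and none upward (median -0.92), and all 36 without library 1. The control level differed between cultures too. The summed TPM of the list was 3960 to 4180 in 3D control and 2410 to 2440 in 2D control. It was 1060 to 1870 in 3D dSRF and 1480 to 1590 in 2D dSRF. MCM4 had 109, 86.4 and 81.3 CPM in 3D dSRF and 250, 278 and 260 in 3D control, with 89.2, 92 and 97 in 2D dSRF and 112, 110 and 110 in 2D control (log2 difference -1.25, SE 0.12, adjusted p = 1.53e-07, and -1.40 without library 1). KRT7 had 409, 396 and 379 CPM in 3D dSRF and 101, 106 and 104 in 3D control, with 280, 259 and 282 in 2D dSRF and 377, 380 and 408 in 2D control (log2 difference 2.43, SE 0.08, adjusted p = 7.99e-14, and 2.40 without library 1). KRT7 in the dSRF line was therefore above control on matrigel and below it in plates. The 6 largest differences above 0 by the rule were DMBT1, DEFB103B, SOST, NPPB, KISS1 and XIRP1, and the 6 largest below 0 were GPR199P, CDH16, CXCL10, PAPPA2, IL36G and N4BP3. DMBT1, a mucosal scavenger receptor, had 4.47, 11.5 and 12.6 CPM in 3D dSRF and 0.638, 0.643 and 0.552 in 3D control, with 7.45, 7.55 and 6.98 in 2D dSRF and 25.5, 40.8 and 27 in 2D control (log2 difference 6.03, SE 0.43, adjusted p = 7.19e-09, and 6.37 without library 1). CXCL10, an interferon-induced chemokine, had 0.344, 0.267 and 0.0493 CPM in 3D dSRF and 1.74, 1.23 and 1.2 in 3D control, with 0.487, 0.489 and 0.672 in 2D dSRF and 0.0972, 0.128 and 0.0544 in 2D control (log2 difference -5.11, SE 0.73, adjusted p = 4.48e-05, and -5.61 without library 1). CXCL10 rests on few counts in 3D dSRF, 2D dSRF and 2D control, so the size of its difference is uncertain.

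**Figure D5:**
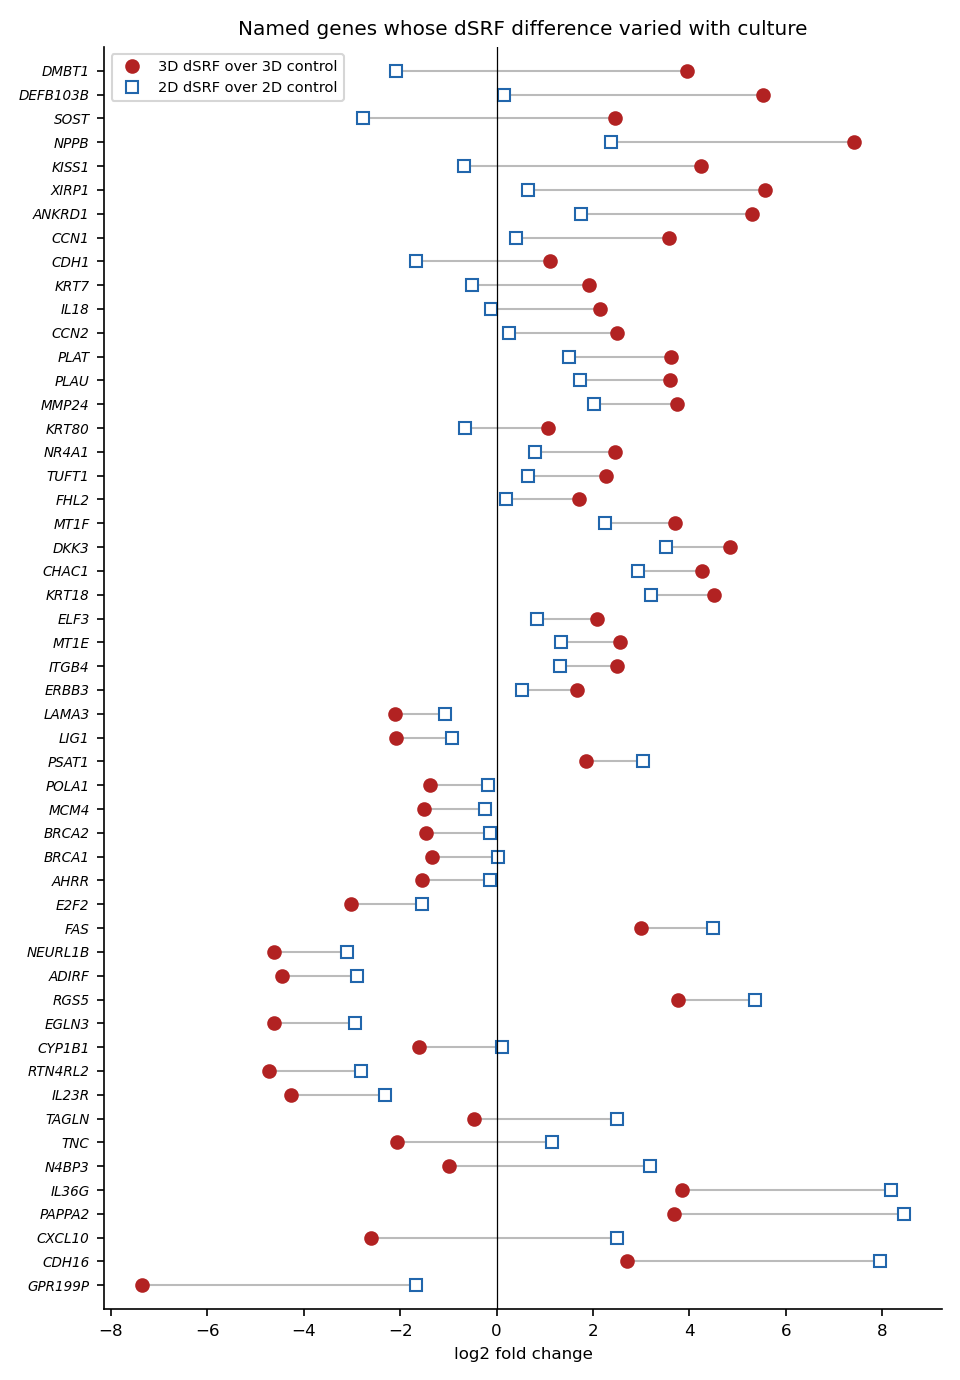
The x axis gives the log2 fold change of dSRF over control on matrigel (circles) and in plates (squares) for each named gene whose difference between cultures was called with and without library 3D dSRF 1 and was at least 1 log2 unit. Rows run from the largest positive difference, DMBT1 at 6.03, to the largest negative, GPR199P at -5.67.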

How the data were processed

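RNA from column kits was made into stranded total RNA libraries from which ribosomal RNA was depleted, per the labels' protocols. Salmon 11.3, as written there, and hg38 are named in the submitters' processing notes, and no annotation release is named there or in the labels. The authors deposited expected counts and TPM per gene. These are estimates in which Salmon divides reads that fit several transcripts, so near-identical genes are less certain than others. Counts were rounded here to whole numbers. Of 37247 gene identifiers 29235 had a symbol in the symbol table used. Positions are GENCODE 29 on GRCh38, matched by gene identifier.

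One fit over all 24 libraries and 8 groups was made with edgeR 4.0.16 (R 4.3.3), TMM scaling, filterByExpr and robust quasi-likelihood dispersion, leaving 14986 genes (1016 with no symbol, used in the fit but not named). The threshold was an adjusted p of 0.05 after Benjamini-Hochberg. The standard error was the absolute log2 fold change divided by the square root of F. Groups and libraries were taken from the titles. The chi-square of counts per degree of freedom was 4.27 to 6.88 between 3D control libraries and 4.85 to 111 between 3D dSRF libraries, so none was counted as a repeat of another.

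Genes were named by rule: the 15 largest rises and falls against control among called genes with non-overlapping groups and a mean of at least 1 CPM in either group, 6 each way for the other comparisons, the 5 members of each list with the lowest p, and a fixed set of MRTF/SRF genes. IL24, ACTG1 and members named beside small counts were added after their values were seen. The comparison and the 39 gene lists were chosen with earlier results of these data known. Where a group held no count, the fold is a minimum that takes 3 counts over that group's libraries as the floor and covers counting error only.

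Promoter windows were RefSeq sequences of GRCh38.p14, searched on both strands. Alternatives were limma 3.58.1 on log2(TPM + 1) and log2(TPM + 0.1), DESeq2 1.42.0, RLE size factors, no filter on low counts, the 6 to 12 libraries of a comparison alone, a replicate block, and leaving out each library. Fits without library 3D dSRF 1 use the same model with 23 libraries. Some genes and lists of the comparison are not reported here.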

Additional observations from a re-analysis of the deposited data

Results flagged for a closer look

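For 52 named genes the log2 fold change of dSRF over control on matrigel differed from that in plates, by edgeR's test of the difference itself, with and without library 3D dSRF 1 and by at least 1 log2 unit. Each value here is that log2 difference, matrigel minus plates. The comparison of cultures uses the 3D libraries of the main comparison, and many genes were named for a large change on matrigel.

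Above 0 were genes of the YAP and cytoskeletal lists, CCN1 3.18, CCN2 2.24, ANKRD1 3.52, TUFT1 1.60 and FHL2 1.51. CCN1 and CCN2 had log2 fold changes of 3.58 and 2.50 on matrigel and of 0.40 and 0.26 in plates. Keratin, junction and luminal genes were KRT7 2.43, KRT18 1.32, KRT80 1.72, CDH1 2.78, ERBB3 1.13 and ELF3 1.26, and CDH1 was at low levels on matrigel. The adhesion and protease genes were ITGB4 1.18, PLAU 1.85, PLAT 2.11 and MMP24 1.73. Signalling, stress and metal-binding genes were NR4A1 1.66, DKK3 1.34, IL18 2.26, CHAC1 1.33, MT1E 1.23 and MT1F 1.48. The rule for the largest differences added DMBT1 6.03, DEFB103B 5.35, SOST 5.23, NPPB 5.04, KISS1 4.90 and XIRP1 4.90. DEFB103B, NPPB and XIRP1 had 2 counts or fewer over the 3D control libraries, so the size of their differences is uncertain.

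Below 0 were genes of replication and the cell cycle, BRCA1 -1.37, BRCA2 -1.33, POLA1 -1.20, LIG1 -1.16, MCM4 -1.25 and E2F2 -1.48. BRCA1 had a log2 fold change of -1.34 on matrigel and 0.03 in plates. Among the largest falls on matrigel were GPR199P -5.67, RTN4RL2 -1.92, EGLN3 -1.69, NEURL1B -1.51, ADIRF -1.55 and IL23R -1.94. Further genes were TAGLN -2.97, TNC -3.22, LAMA3 -1.02, PSAT1 -1.17, FAS -1.50 and RGS5 -1.61, of which PSAT1, FAS and RGS5 rose in both cultures, by less on matrigel. TAGLN had a log2 fold change of -0.47 on matrigel, not called, and of 2.50 in plates. Aryl hydrocarbon receptor genes were CYP1B1 -1.73 and AHRR -1.42. The rule for the largest differences added CDH16 -5.25, CXCL10 -5.11, PAPPA2 -4.77, IL36G -4.34 and N4BP3 -4.17. CDH16, PAPPA2 and IL36G had no count in 2D control and GPR199P had none in 3D dSRF, so these values depend on the prior count of the fit. CXCL10 rests on few counts in 3D dSRF, 2D dSRF and 2D control, so its size is uncertain as well.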

How the results depend on the processing

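The count of genes called between 3D dSRF and 3D control was 9948, and 9962 with RLE size factors, 9764 with no filter, 9971 with DESeq2, 9130 on log2(TPM + 1), 9035 on log2(TPM + 0.1) and 6761 with only the 6 libraries compared. Leaving out each library gave 9418 to 11098 against 3D control, 9175 to 11107 against 3D WT and 3679 to 6680 for the difference between cultures. That last count was 2642 with only the libraries compared and 6680 without 3D dSRF replicate 1, against 4379 with all. The first of these fits uses fewer libraries, and the cause of the second was not tested. The list medians that turned sign without library 3D dSRF 1 were: contractile genes -0.26, EGF family -0.07, chemokines and cytokines -0.26, fibroblast markers 0.15 and line markers -0.09. On log2(TPM + 1) interstitial matrix was 0.02 and fibroblast markers 0.01, both below 0 with edgeR. The basal keratin median was 1.11 and the epithelial median 1.21 on log2(TPM + 1), a scale that understates changes of low genes. ACTB was -0.55 to 0.10 over fits that left out one library, with 0.10 without 3D dSRF replicate 2 or 3. CNN1 was -2.65 to 3.34 over such fits, with -2.65 without 3D dSRF replicate 1, and CDH1 was -0.31 on log2(TPM + 1) and -0.48 on log2(TPM + 0.1), and the cause was not tested. Of the other values of single genes under these alternatives, 2357 kept their direction and side of the threshold, 20 lost their call and 4 gained one. This tally does not cover every member named beside a small count. CDH2 and ARNT, outside it, also lost their call without 3D dSRF replicate 1. IL6, TGFB2 and DKK1, outside it too, turned sign without that library and were called in both fits. The correlation of deviations of same-numbered libraries was -0.131 to 0.0543 over 15 pairs of libraries, none over 0.1. In plates, however, library 3 had the lowest mitochondrial share of counts in every group. For example, libraries 1, 2 and 3 held 0.89%, 0.856% and 0.398% in 2D control and 0.933%, 0.748% and 0.488% in 2D dSRF. What this shared order reflects was not tested. With the replicate block 9862 genes were called against control, 5151 higher and 4711 lower, with 9756 against 3D WT and 4185 for the difference between cultures. Genes under about 1 CPM rest on few counts per library at these depths, and their folds are the least certain.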

Other observations

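Genes of oxidative metabolism and of the lysosome were also measured. Of 35 nuclear-encoded respiratory chain genes 8 rose and 19 fell in 3D dSRF against 3D control (median -0.26), and without library 1 5 rose and 21 fell (median -0.41). COX7B, a subunit of cytochrome c oxidase, had 46.3, 33.4 and 34.8 CPM in 3D dSRF and 67.6, 70.6 and 67.3 CPM in 3D control (log2 fold change -0.84, SE 0.09, adjusted p = 6.86e-08, and -1.01 without library 1). COX6A1, of the same complex, had 126, 120 and 126 CPM in 3D dSRF and 95, 97.7 and 91 CPM in 3D control (log2 fold change 0.39, SE 0.05, adjusted p = 5.06e-07, and 0.38 without library 1). SDHA, of complex II, had 142, 95.1 and 93.6 CPM in 3D dSRF and 186, 192 and 189 CPM in 3D control (log2 fold change -0.77), and NDUFS1 of complex I and ATP5F1A of ATP synthase had log2 fold changes of -0.38 and -0.49, or -0.45 and -0.66 without library 1. Of 29 lysosome and V-ATPase genes 14 rose and 8 fell (median 0.14), and without library 1 15 rose and 10 fell. The proton pump subunit gene ATP6V1B2 had 169, 175 and 174 CPM in 3D dSRF and 95.6, 97.2 and 100 CPM in 3D control (log2 fold change 0.82, SE 0.04, adjusted p = 1.3e-13, and 0.83 without library 1). ASAH1, acid ceramidase, had 322, 490 and 507 CPM in 3D dSRF and 162, 149 and 141 CPM in 3D control (log2 fold change 1.55, SE 0.11, adjusted p = 4.11e-10, and 1.73 without library 1), and LAMP1, of the lysosomal membrane, had a log2 fold change of -0.58.

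Of 18 NF-kB subunit and feedback genes 9 rose and 7 fell (median 0.16, and 0.09 without library 1). TNFAIP8 had 16.4, 16.4 and 15.6 CPM in 3D dSRF and 42.5, 47.2 and 40.8 CPM in 3D control (log2 fold change -1.43, SE 0.07, adjusted p = 5.31e-13, and -1.44 without library 1). The subunit gene RELA had 203, 204 and 196 CPM in 3D dSRF and 119, 121 and 117 CPM in 3D control (log2 fold change 0.76, SE 0.04, adjusted p = 5.57e-12, and 0.75 without library 1). RELB and the deubiquitinase gene CYLD had log2 fold changes of 0.93 and 0.69, and ICAM1, an adhesion molecule, had 818, 668 and 697 CPM in 3D dSRF and 331, 355 and 327 CPM in 3D control (log2 fold change 1.11, SE 0.07, adjusted p = 3.06e-11, and 1.01 without library 1). In each of these 3 genes with values the groups did not overlap, as in 59.8% of all genes tested.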
